A study of Mus musculus with 24 samples.

Results

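Hepatocytes isolated from mice that lack IkkB in the liver epithelium were compared with wild-type hepatocytes across all genes. The comparison holds the genes for which the authors' program made a test between the WT and the IkkB KO preparations and whose value was at least 0.1 in either of them, 12135 of the 24319 genes in the table. The series has 24 samples, 12 of them isolated hepatocytes, from 4 genotypes with 3 biological replicates each, and 6 samples enter this comparison. All mice were 2-month-old males labelled C57/BL6. The WT group is labelled wild type, with no Cre transgene and no floxed allele named. The IkkB KO group is Alb-Cre+;IkkBf/f, in which Cre recombinase under the albumin promoter deletes the floxed gene in hepatocytes and in other cells of the albumin-expressing lineage, while macrophages, endothelium and stellate cells keep it. The Double KO group, used at the end, carries Cre with floxed Shp2 and floxed IkkB. Since no floxed or Cre-carrying controls are named, loss of IkkB cannot be told apart from effects of the Cre transgene or of the floxed background.

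IkkB, the protein encoded by Ikbkb, is a catalytic subunit of the IκB kinase complex that is activated by TNF, interleukin-1 and Toll-like receptors. It phosphorylates the IκB inhibitors, which are then degraded, and the Rel proteins they held back enter the nucleus and bind kB sites in promoters of inflammatory and survival genes. In liver the pathway is known for the acute phase response, in which hepatocytes secrete serum amyloid A, lipocalin and other plasma proteins, and for protecting hepatocytes from death on TNF. The title of the series names hepatocarcinogenesis and the circadian clock as its subjects.

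The table gives 1 value per gene and genotype and no value per replicate, so depth and the spread between animals are unknown. By the convention of the program the values are FPKM, that is fragments scaled to transcript length and to library size, and all levels below are on this scale. "Rose" and "fell" mark genes with a q-value under 0.05 in the authors' deposited table. Differences are log2 differences of value + 1, IkkB KO minus WT, which understates the change of low genes. Where a log2 ratio of the values themselves is given, its standard error is the one implied by the deposited test statistic, a modelled error of the program and not an observed spread; its median over all genes was 0.24.

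The preparations were hepatocytes with other liver cells in both genotypes, and more transcript of those cells in IkkB KO. Of 20 hepatocyte markers 13 were tested, 2 were lower (Cyp2e1 and Cyp3a11) and 0 higher, with a median of -0.06 and summed levels of 27060 and 23010. Transthyretin (Ttr) was 8481 in WT and 8130 in IkkB KO, and Hnf4a, a hepatocyte transcription factor, was 194 and 183. Albumin and 6 other hepatocyte markers were too abundant for the program to estimate and are listed at 0 in 1 or both genotypes. Of the 25 listed macrophage and Kupffer cell markers, 22 of 24 tested were higher in IkkB KO, and their summed level went from 189 to 500.5. Of 32 stellate cell, fibroblast and smooth muscle markers, 23 of 27 tested were higher, with sums of 288 and 521. Of 22 sinusoidal endothelial markers, 19 of 21 tested were higher, with sums of 211 and 284. Aass, which did not pass, made up 123 and 106 of the sinusoidal sums. Cxcl12, which did not pass either, made up 114 and 123 of the stellate cell sums. T and NK cell markers (0 of 8 tested called, sums 19.6 and 23.1) and B and plasma cell markers (0 of 5 called, sums 105.5 and 92.2) did not pass. Of their tested members 6 of 8 and 4 of 5 lay above 0, with medians of 0.35 and 0.38. Of the 20 B and plasma cell markers, 18 were below 1 in both genotypes, so that sum rests on few genes. Fewer cells of a type and less RNA per cell cannot be told apart in such values. Their part in the results below was not tested.

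Of the 12135 genes, 922 rose (7.6%) and 220 fell (1.81%), 9.41% in all. The median difference over all genes was close to 0 (0.0015), with 6095 genes above 0 and 6040 below. A ratio of at least 2-fold was reached by 751 of the genes that rose and 90 of those that fell. The direction depended on the level of the gene. Of the 922 genes that rose, 575 (62.4%) had a WT value below 1, against 11 of the 220 that fell (5%). Among the 1131 genes with a WT value below 0.5 the median difference was 0.30, with 400 rises and 4 falls. Among the 171 genes above 500 in WT it was -0.17, with 1 rise and 9 falls. The program left genes untested when both values were low, so a gene close to 0 in WT entered the comparison mainly when its IkkB KO value was higher. For the 1425 genes at 50 or more in WT the median was -0.13, with 16 rises and 56 falls, and lists of abundant transcripts are set beside that value below.

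**Figure D1:**
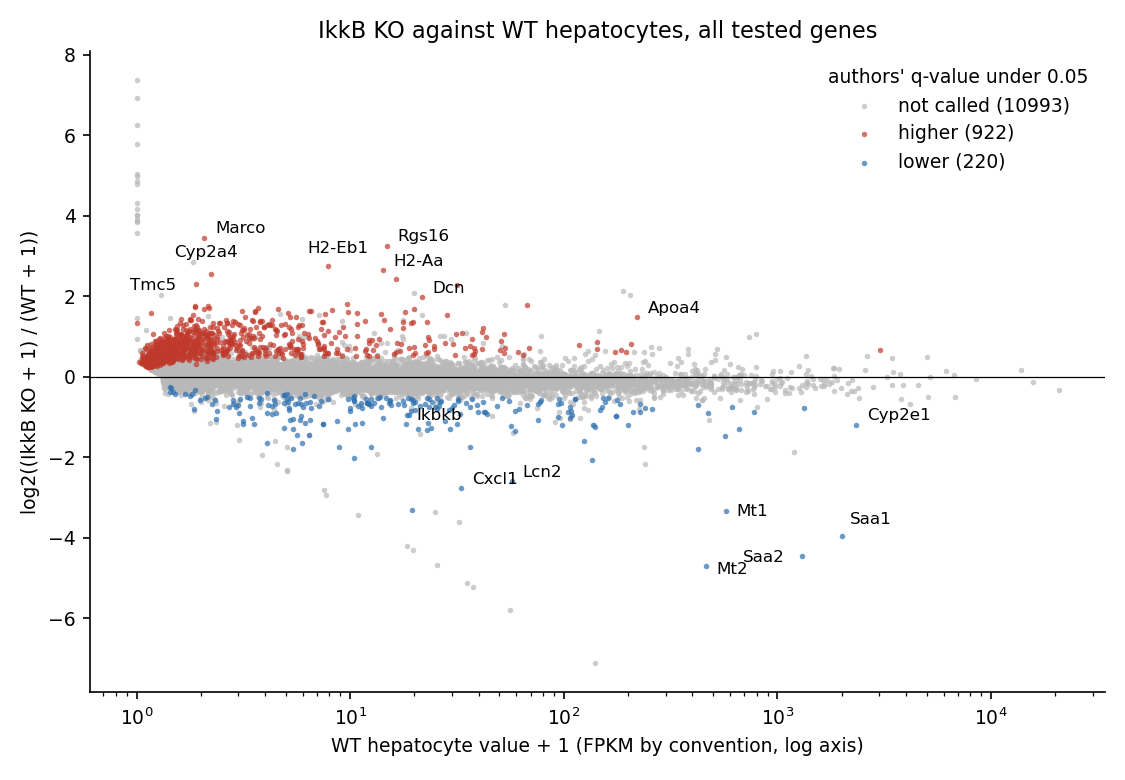
Each point is 1 of the 12135 tested genes, with the WT value + 1 on a log axis and the log2 difference of value + 1 (IkkB KO minus WT) on the vertical axis. Red points are the 922 genes that were higher and blue points the 220 that were lower at a q-value under 0.05, grey points did not pass, and the grey points on steep lines at the left are genes listed at 0 in 1 genotype.

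**Figure D2:**
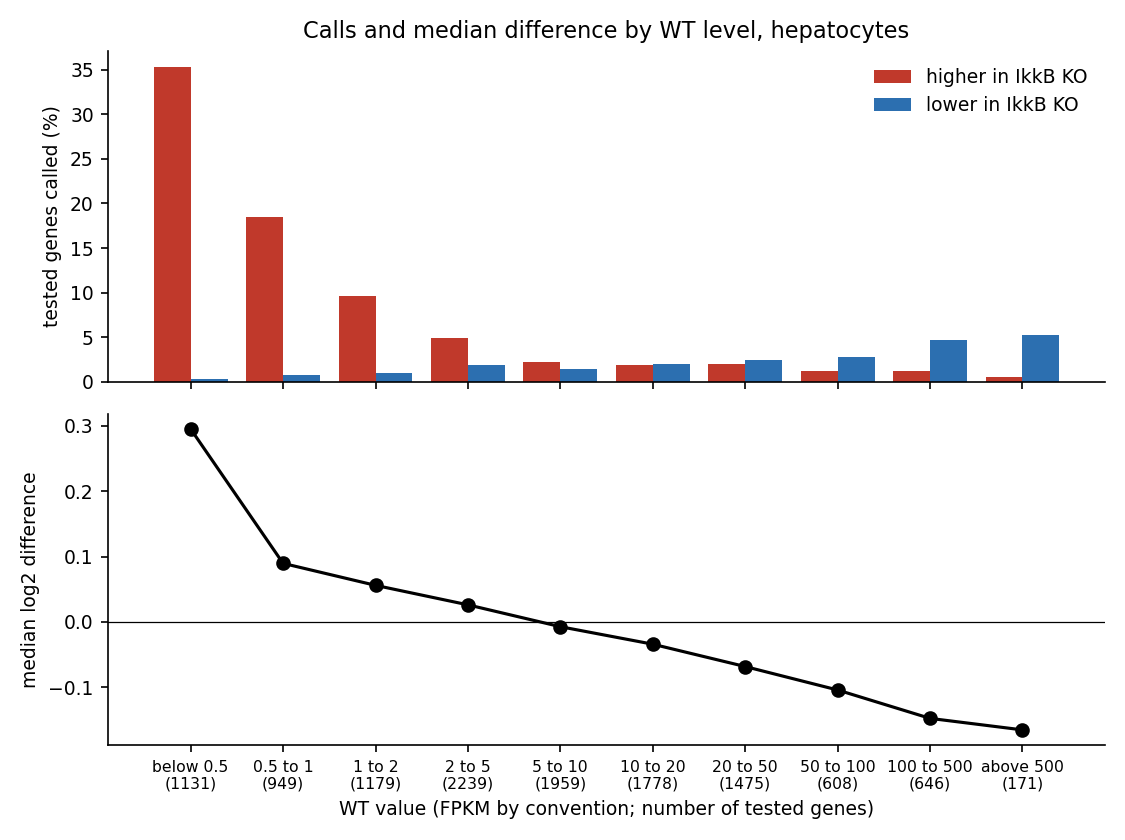
The upper panel gives the percentage of tested genes called higher (red) or lower (blue) in IkkB KO hepatocytes by the WT value, and the lower panel the median log2 difference of the same genes. The median runs from 0.30 below 0.5 to -0.17 above 500.

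The targeted gene was lower in the samples labelled as lacking it. On the list of its pathway, which includes it, 8% of tested genes were called, close to the 9.41% over all tested genes. Ikbkb was 17.3 in WT and 7.16 in IkkB KO hepatocytes, a log2 ratio of -1.28 (implied SE 0.21) with q = 0.00048 in the authors' deposited table. The labels do not say which exons are floxed, and the value covers the whole gene. Of the 25 genes on the list of IKK subunits, Rel factors and their inhibitors, all were tested, 0 rose and 2 fell, with a list median of -0.13. The other fall was Bcl3, an atypical IκB that binds p50 and p52 homodimers, from 24.4 to 13.6 (q = 0.00162 in the authors' deposited table). The partner kinase Chuk was 35.4 and 38.4, the scaffold Ikbkg 13.8 and 15.4, Rela 21.7 and 19.7 and Nfkb1 6.84 and 6.95. The inhibitor Nfkbia, itself induced by Rel proteins, was 22.1 and 27.4 (q = 0.318 in the authors' deposited table), and the ubiquitin editor Tnfaip3 was 0.491 and 0.878 (q = 0.0847). The 10 nearest tested neighbours of Ikbkb on chromosome 8, 5 on each side in RefSeq order, held 0 calls, with a lowest q of 0.178 in the authors' deposited table.

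Receptors and transducers of the inflammatory cytokines that act on hepatocytes gave 2 falls and 0 rises among 22 tested of 24 listed (median -0.08). That is 9.09% called, close to the 9.41% over all tested genes. Il1r1, the signalling receptor for interleukin-1, fell from 22.9 to 8.88, a log2 ratio of -1.37 (implied SE 0.23). Socs3, the feedback inhibitor of the interleukin-6 and Stat3 pathway, fell from 12.9 to 7.28. The accessory chain Il1rap was 88.4 and 87.2, the TNF receptor Tnfrsf1a 46.9 and 44.0, the interleukin-6 receptor chains Il6ra and Il6st 14.1 and 11.7, and 22.9 and 25.3, and Stat3 37.6 and 27.7, all with q above the threshold.

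Acute phase genes, metallothioneins and the chemokine Cxcl1 were among the 15 largest falls. Their promoters are shown here because kB sites and metal response elements are the sequences through which these genes are known to respond. Each is the RefSeq window of 300 bases, 250 before and 50 after the annotated start, on GRCm38.p6 and written 5′ to 3′ on the gene's strand. The first 4 are Cxcl1 at chr5:90890995-90891294 (plus strand), Saa1 at chr7:46742931-46743230 (minus), Saa2 at chr7:46751583-46751882 (plus) and Lcn2 at chr2:32387690-32387989 (minus). Capitals mark a loose kB pattern, GGG and CC with any 5 bases between them, on either strand, and adjacent matches on opposite strands overlap.
Cxcl1: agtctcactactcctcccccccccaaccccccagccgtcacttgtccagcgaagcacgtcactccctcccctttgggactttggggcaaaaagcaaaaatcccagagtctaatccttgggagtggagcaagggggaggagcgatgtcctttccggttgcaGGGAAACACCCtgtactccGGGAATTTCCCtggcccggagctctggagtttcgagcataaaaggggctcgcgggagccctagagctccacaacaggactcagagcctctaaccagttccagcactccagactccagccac
Saa1: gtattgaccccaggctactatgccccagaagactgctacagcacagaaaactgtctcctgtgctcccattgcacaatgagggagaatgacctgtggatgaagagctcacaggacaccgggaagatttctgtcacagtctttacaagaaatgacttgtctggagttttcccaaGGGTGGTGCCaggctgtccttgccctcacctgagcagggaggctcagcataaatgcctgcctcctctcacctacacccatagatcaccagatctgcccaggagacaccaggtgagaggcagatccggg
Saa2: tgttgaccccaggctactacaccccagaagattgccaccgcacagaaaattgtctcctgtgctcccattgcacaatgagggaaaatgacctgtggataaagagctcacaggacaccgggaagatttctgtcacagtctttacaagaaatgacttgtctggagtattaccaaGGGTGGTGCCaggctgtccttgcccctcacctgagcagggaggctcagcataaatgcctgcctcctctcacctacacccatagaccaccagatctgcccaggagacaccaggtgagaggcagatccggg
Lcn2: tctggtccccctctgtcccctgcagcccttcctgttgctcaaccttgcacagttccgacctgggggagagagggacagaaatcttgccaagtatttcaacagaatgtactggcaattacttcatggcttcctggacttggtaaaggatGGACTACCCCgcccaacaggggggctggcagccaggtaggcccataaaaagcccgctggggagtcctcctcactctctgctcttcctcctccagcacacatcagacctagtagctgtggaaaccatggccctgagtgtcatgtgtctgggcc
Cxcl1 also held the narrow kB pattern, GGGA and TTCC with any 2 bases between them, as GGGAATTTCC with its first base at -71 from the start site; every narrow match is also a loose one. Saa1 and Saa2 shared the same 10 letters, GGGTGGTGCC, at -78 and -79. Of the 32851 promoters in the table, 1.47% held the narrow pattern and 50.8% the loose one (1.63% and 53.5% of the 27025 gene symbols), so a loose match is common. Of the 10 acute phase genes that fell, 8 had a promoter in the table. Of these, 5 held the loose kB pattern, 0 the narrow one and 0 the Stat pattern TTCNNNGAA, which 9.55% of all symbols held in at least 1 promoter. The window is short and says nothing of sites outside it.

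Among 30 listed secreted acute phase proteins, 28 were tested, 10 fell and 1 rose, with a median difference of -0.54. Saa1, the main inducible serum amyloid A, fell from 1998.5 to 127, and Saa2 from 1299 to 58.6, 22.2-fold lower. Their log2 ratios were -3.98 (implied SE 0.39) and -4.47 (implied SE 0.39). The constitutive Saa4 fell from 423 to 121 and Saa3 from 18.4 to 9.72. Lcn2, which binds bacterial siderophores, fell from 56.3 to 8.51, a log2 ratio of -2.73 (implied SE 0.31). Smaller falls were seen for the orosomucoids Orm2 (41.6 to 22.05) and Orm3 (4.38 to 1.57), the antichymotrypsins Serpina3n (474 to 253) and Serpina3m (226 to 142), and Lbp, which presents lipopolysaccharide to Cd14 (60.5 to 34.1). The fall was not shared by every plasma protein of the list. Haptoglobin (Hp) was 4180.2 and 2614 with q = 0.262, and the fibrinogen chain Fgb 6825 and 4799 with q = 0.566 in the authors' deposited table, where the implied standard errors at these levels are 0.42 and 0.52. Ceruloplasmin (Cp) was 419.7 and 468, and hemopexin (Hpx) 6133 and 6743. Saa1 and Saa2, and the Orm and Serpina3 genes, are near-identical copies between which reads can be split.

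Metallothioneins are small zinc- and copper-binding proteins induced by metals, through the metal-responsive factor Mtf1, and also by glucocorticoids and inflammation. The promoters of the pair, Mt1 at chr8:94178839-94179138 and Mt2 at chr8:94172368-94172667 (both plus strand, same windows and build), are shown with the metal response element core TGCNCNC in capitals on either strand.
Mt1: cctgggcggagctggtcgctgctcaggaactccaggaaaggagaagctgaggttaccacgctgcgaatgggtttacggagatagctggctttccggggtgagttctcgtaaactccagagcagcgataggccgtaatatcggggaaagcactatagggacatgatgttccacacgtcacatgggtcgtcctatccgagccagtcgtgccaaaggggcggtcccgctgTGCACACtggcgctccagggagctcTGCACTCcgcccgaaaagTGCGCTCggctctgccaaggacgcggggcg
Mt2: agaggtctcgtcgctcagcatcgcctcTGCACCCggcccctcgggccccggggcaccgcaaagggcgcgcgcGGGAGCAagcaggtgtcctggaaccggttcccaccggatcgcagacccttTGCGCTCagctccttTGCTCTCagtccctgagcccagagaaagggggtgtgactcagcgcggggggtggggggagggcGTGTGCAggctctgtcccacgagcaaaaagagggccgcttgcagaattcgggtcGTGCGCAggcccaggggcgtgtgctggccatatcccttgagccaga
Mt1 held 3 matches and Mt2 held 6, and 51% of all promoters in the table held at least 1. Mt2 fell from 464 to 16.8, 27.6-fold lower, the largest fall of the comparison by log2 difference (-4.71) among genes that passed. Mt1 fell from 573 to 55.3, 10.4-fold lower. Their log2 ratios were -4.79 (implied SE 0.37) and -3.37 (implied SE 0.33). The zinc transporters did not follow: of 13 tested genes of this list only these 2 passed. Slc39a14, the importer induced in inflammation, was 74.0 and 61.5, the exporters Slc30a1 and Slc30a10 were 8.87 and 8.57, and 15.5 and 10.5, and Mtf1 was 2.95 and 2.78. Mt3 and Mt4 were at 0 in both genotypes.

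Iron genes moved in both directions, with 4 rises and 2 falls among 21 tested of 22 listed. Hamp, which encodes the iron hormone hepcidin, rose from 3026 to 4753 (q = 0.0485 in the authors' deposited table), while its copy Hamp2 fell from 257 to 146. Reads can be split between such copies. In whole liver Hamp was 5188 and 8532 and did not pass (q = 0.0669 in the authors' deposited table). Id1, a BMP target, rose from 4.17 to 8.10, and Hmox1, which degrades heme, rose from 6.52 to 14.4. The iron exporter Slc40a1, also on the macrophage list, rose from 36.9 to 54.5. Scara5, which has been described as a ferritin receptor, was among the 15 largest falls (9.44 to 1.57), as was Cyb561, a member of the cytochrome b561 family of transmembrane electron carriers (4.39 to 0.555).

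Chemokine genes other than Cxcl1 were higher or did not pass. Cxcl1, the neutrophil attractant, fell from 32.2 to 3.90, a log2 ratio of -3.04 (implied SE 0.34). Of 19 tested of 36 listed chemokines and receptors 6 rose, among them Ccl6 (1.38 to 4.48), Ccl24 (0.613 to 2.35), Ccl2 (0.285 to 1.28) and the interferon-induced Cxcl9 (4.68 to 8.21). Over all tested genes 7.6% rose. Of the 36, 22 were below 1 in both genotypes, and genes that low entered the comparison mainly when their IkkB KO value was higher. Of the list of survival and adhesion genes induced by NF-κB, 17 of 27 were tested, 1 rose and 0 fell. The rise was Vcam1, an adhesion molecule of endothelium and Kupffer cells, from 0.885 to 5.29. Among death receptor, necroptosis and Bcl2 family genes 3 of 22 tested rose, all from WT values below 1: Casp1 (0.594 to 2.04), the necroptosis kinase Ripk3 (0.347 to 1.34) and Apaf1 (0.250 to 0.509). The median of that list was 0.03, with 12 members above 0 and 10 below. Among all 1131 tested genes with a WT value below 0.5, 400 rose and 4 fell, and among the 949 at 0.5 to 1, 175 and 7. Of 22 tested p53 targets 2 fell and 1 rose. Cdkn1a, the inhibitor of cyclin-dependent kinases, fell from 11.5 to 2.73 (log2 ratio -2.07, implied SE 0.32) and the stress hormone Gdf15 from 9.53 to 3.64, while Phlda3 rose from 0.373 to 1.17.

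**Figure D3:**
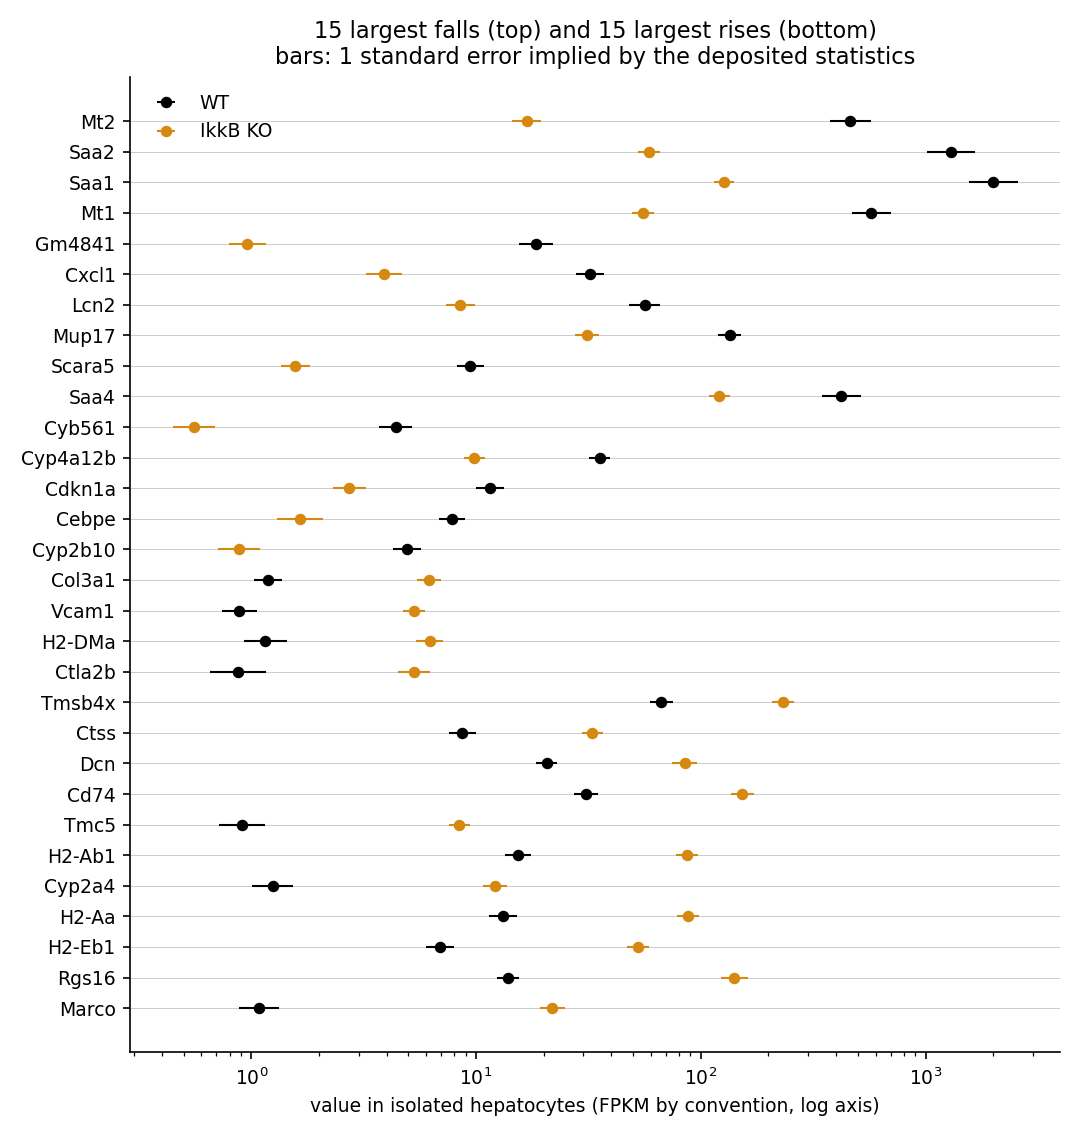
The WT (black) and IkkB KO (orange) hepatocyte values on a log axis for the 15 largest falls and the 15 largest rises by log2 difference among called genes with a value of at least 1. Bars are 1 standard error implied by the deposited statistics, and in none of the 30 genes do the bars of the 2 genotypes overlap.

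Drug-metabolising cytochrome P450 transcripts were mostly lower in the isolated hepatocytes, which was not so in whole liver (below). Of 39 tested of 46 listed, 12 fell and 2 rose, 30 lay below 0 and the median was -0.26, against -0.13 for genes at 50 or more in WT. Cyp2e1, which oxidises ethanol and small molecules, was 2339.5 in WT and 1026 in IkkB KO (log2 ratio -1.19, implied SE 0.42). Cyp2c29 fell from 567 to 205, Cyp2c37 from 58.0 to 22.1, Cyp2c40 from 3.88 to 1.01, Cyp2c69 from 3.09 to 0.304, and Cyp2b10, the classic target of the receptor CAR, from 4.92 to 0.883. The 2 rises were genes of female liver, Cyp2a4 from 1.24 to 12.2 and Cyp2b9 from 0.165 to 2.47. The Cyp2a, Cyp2b and Cyp2c genes are families of close copies.

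Liver lobules are zoned, with P450 enzymes and glutamine synthesis near the central vein and urea synthesis and gluconeogenesis near the portal vein. Pericentral genes gave 6 falls and 0 rises among 23 tested of 24, with 21 below 0 and a median of -0.36. Beside Cyp2e1 they were Oat, an ornithine aminotransferase (199.9 to 87.0), Slc1a2, a glutamate importer (10.3 to 4.06), Cyp1a2 (239.96 to 140.02), Rgn (422 to 258) and Aldh3a2 (31.0 to 19.9). Glul, glutamine synthetase, was 109.8 and 68.3 with q = 0.055 in the authors' deposited table. Periportal genes gave 4 rises and 0 falls among 22 tested of 24, with a median of 0.04. These were the apolipoprotein Apoa4 (219.5 to 616), Etnppl (142 to 229.8), Hsd17b6 (194 to 298) and the lysosomal protease Ctsc (36.1 to 52.7). A difference between the 2 zone lists was not tested.

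Genes that growth hormone makes more abundant in male liver were mostly lower. Of 28 listed, 21 were tested, 10 fell and 1 rose, with a median of -0.66. Falls included Cyp4a12b (35.4 to 9.83), Cyp4a12a (97.5 to 41.6), the elongase Elovl3 (139 to 57.7), Susd4 (5.42 to 1.36), Selenbp2 (774 to 423) and Cyp2d9 (612 to 359.7). The exception was Ugt2b38, from 4.23 to 13.5. Mup17, a major urinary protein of the same class, fell from 135 to 31.3, but Mup genes are near-identical and 6 of the 9 on the list were too abundant to estimate. Female-biased genes went both ways, 3 up and 4 down among 14 tested of 27: beside Cyp2a4 and Cyp2b9, the peroxisomal transporter Abcd2 rose from 1.64 to 5.69. The largest of the 4 falls was that of Cyp2b10, with a difference of -1.65. Within the growth hormone, Stat5 and Igf1 axis (17 tested of 19 listed) 2 fell and 3 rose. The Stat5 target Cish fell from 38.7 to 20.8 and Igfals, which carries Igf1 in plasma, from 95.9 to 60.9. The repressor Bcl6 rose from 4.32 to 8.77, Igfbp1 from 30.5 to 64.9 and Igfbp3 from 3.09 to 8.89.

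Of 23 tested hepatocyte transcription factors 2 fell and 1 (Bcl6) rose. Onecut1 fell from 30.7 to 13.03 and Foxa2 from 22.4 to 15.1. Cebpe, a granulocyte C/EBP family member that was not on this list, was among the largest falls, from 7.84 to 1.65. Of 32 tested nuclear receptors and coactivators 2 rose and 1 fell, the fall being Nr0b2, the bile acid-induced repressor SHP, from 55.9 to 23.5 (log2 ratio -1.25, implied SE 0.23). Bile acid synthesis had no other call among 21 tested genes. Conjugating enzymes gave 4 rises and 0 falls among 26 tested of 32, with Ugt2b38, Sult5a1 (35.5 to 61.2), Ugt2b35 (52.3 to 86.4) and Ugdh, which makes the UDP-glucuronate they use (67.4 to 111). Of 34 tested glutathione and Nrf2 genes 5 rose and 2 fell, among them Srxn1, which repairs peroxiredoxins (15.6 to 28.5), and Gstm2 (24.0 to 13.8).

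**Figure D4:**
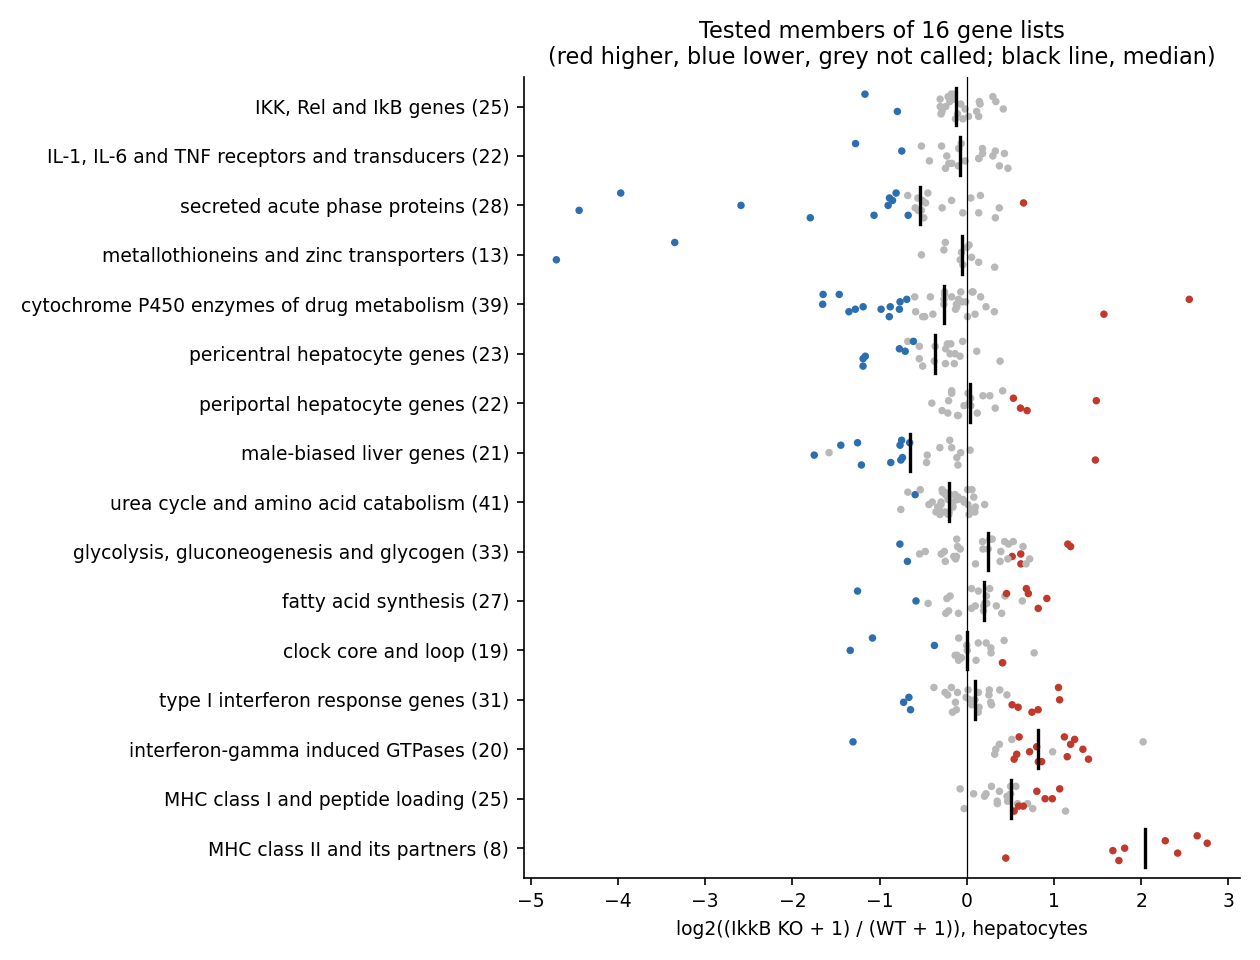
Each point is a tested member of 1 of 16 gene lists, by its log2 difference of value + 1 in IkkB KO against WT hepatocytes, with the number of tested members in brackets. Red members were higher and blue members lower at a q-value under 0.05, grey members did not pass, and the black line is the list median, which runs from -0.66 for male-biased genes to 2.04 for MHC class II.

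Lipid and sugar genes changed in a minority of members. The called share was 25.9% in fatty acid synthesis, 16.7% in fatty acid oxidation and 21.2% in glucose metabolism. It was 3.85% in cholesterol synthesis and 2.44% in the urea cycle and amino acid list, against 9.41% of all tested genes. In fatty acid synthesis, 5 of 27 tested rose and 2 fell (median 0.20): Acaca, the rate-limiting carboxylase, rose from 6.12 to 10.4, Elovl6 from 22.4 to 43.3, Elovl5 from 205 to 362 and Me1 from 33.4 to 55.2, against falls of Elovl3 and Agpat2 (176 to 117). Cholesterol synthesis gave 1 fall, Mvk (24.4 to 16.5), and 0 rises among 26 tested. In fatty acid oxidation, 2 of 36 tested rose and 4 fell; the rises were the hormone Fgf21 (0.777 to 3.76) and the lipase inhibitor Angptl4 (63.2 to 92.5). G0s2, which inhibits the triglyceride lipase of the droplet, fell from 211 to 114, while the fatty acid carrier Cd36 rose from 2.31 to 5.80. Among lipoprotein genes Apoa4 rose 2.81-fold and Gm6484, an older symbol of Angptl8, fell from 136 to 58.7. In glucose metabolism 5 of 33 tested rose and 2 fell (median 0.25), with Pklr, the liver pyruvate kinase, from 172 to 265, Gpi1 from 59.8 to 92.5, the glycogen targeting subunit Ppp1r3c from 29.0 to 16.6 and Pfkfb1 from 21.4 to 12.996. The other rises, Pkm, Hk1 and Hk3, are isoforms of cells other than hepatocytes and had WT values of 2.17, 0.346 and 0.788. The urea cycle and amino acid list had 1 fall (Nags, 54.3 to 35.7) and 0 rises among 41 tested, with a median of -0.21.

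Clock and immediate early genes changed in a minority of members. The called shares were 21.1% and 25%, against 9.41% of all tested genes. Of 19 clock genes, all tested, 3 fell and 1 rose with a median of 0.01. The activator Arntl fell from 4.81 to 1.74, its partner Npas2 from 0.483 to 0.146 and the D-box repressor Nfil3 from 21.96 to 8.09, while Bhlhe41 rose from 0.639 to 1.18. In whole liver this list had 5 rises and 2 falls among 18 tested. Bhlhe41 was lower there (2.16 to 1.34). Arntl was 0.449 and 0.333 in whole liver and did not pass (q = 0.595 in the authors' deposited table). The sample labels give no hour of collection, and its part in the clock differences was not tested. Dbp, an output of the same loop, was 50.2 and 86.5 with an implied SE of the log2 ratio of 0.71 and q = 0.581 in the authors' deposited table. Rgs16, a regulator of G protein signalling that is known to rise on fasting, rose from 13.8 to 141, 10.2-fold higher, the second largest rise by difference (log2 ratio 3.35, implied SE 0.26). Of 24 tested immediate early genes 4 rose and 2 fell: Nr4a1 rose from 2.04 to 6.44 and Ctgf from 0.740 to 2.78, and Zfp36l1, which destabilises mRNA, fell from 57.9 to 31.4. In the Ras-Erk list 4 of 26 tested rose, among them the cyclin Ccnd1 (4.93 to 13.4) and the Erk phosphatase Dusp6 (8.64 to 14.4), and Phlda1 fell from 107 to 58.3. Heat shock genes gave 2 rises, Hspa1b (4.21 to 7.69) and Hspa1a (0.369 to 1.35), which are near-identical. The unfolded protein response gave 1 rise, Dnajb9 (23.6 to 40.6), and 1 fall, Derl3 (6.47 to 2.30), among 29 tested.

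Genes induced by interferon-γ and those of antigen presentation were higher. Of 20 tested interferon-induced GTPases, which act against pathogens inside the cell, 13 rose and 1 fell, with a median of 0.81. Igtp rose from 40.4 to 88.9, Iigp1 from 142 to 259, Gbp2 from 1.63 to 5.93 and Gbp3 from 4.15 to 11.1. Gbp11 went the other way, from 19.7 to 7.39, and Gm4841, another predicted gene of the interferon-induced GTPase family, fell from 18.5 to 0.961, 19.2-fold lower. For Tgtp2 of the same list the deposited log2 ratio departs from its values by 1.7, the only such case. It did not pass, and without it the list median was 0.80. All 8 tested members of the MHC class II list rose, out of 12 listed, with a median of 2.04. H2-Eb1 rose from 6.91 to 52.5, H2-Aa from 13.2 to 87.9, H2-Ab1 from 15.4 to 86.7 and the invariant chain Cd74 from 30.8 to 153, and their inducer Ciita from 0.122 to 0.529. Of 25 MHC class I and peptide loading genes, all tested, 7 rose and 0 fell (median 0.50). The interferon-induced proteasome subunits Psmb8 (49.6 to 93.3), Psmb9 (51.3 to 108) and Psmb10 (51.7 to 78.6) rose, while Psmb5, the constitutive counterpart of Psmb8, fell from 74.6 to 46.4. Type I interferon response genes were mixed, 6 up and 3 down among 31 tested, with Oasl1 down from 11.2 to 6.67. The H2, Gbp and Irg genes hold close copies between which reads can be split. Class II genes are abundant in macrophages and dendritic cells. Macrophage markers moved with them, 22 of 24 tested higher, and the part of that in these rises was not tested.

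Transcripts of non-parenchymal cells were mostly higher. Of the 226 genes on any list that rose, 72 were on the macrophage, sinusoidal, vascular and stellate cell lists, which held 91 tested genes. They were 7.81% of all 922 rises. Marco, a scavenger receptor of macrophages, rose from 1.08 to 21.9, 20.3-fold higher and the largest rise by log2 difference of value + 1 among genes that passed (log2 ratio 4.34, implied SE 0.35). The macrophage list as a whole had a median of 1.25, with C1qa from 17.0 to 53.8, Cd5l from 18.9 to 62.4, Ctss from 8.68 to 33.0 and Cd68 from 2.49 to 8.19. The stellate cell list had a median of 1.02, with the proteoglycan Dcn from 20.6 to 84.8, Ecm1 from 27.5 to 81.6, Colec11 from 12.9 to 39.7 and Reln from 1.97 to 6.37. The sinusoidal list had a median of 0.74, with the lectin Clec4g from 22.2 to 45.3, Ehd3 from 7.89 to 18.2 and Lyve1 from 0.699 to 2.45. Vascular and lymphatic endothelium gave 8 rises and 1 fall among 19 tested, with Plvap from 10.8 to 29.6; the fall was Ly6a (Sca-1), which interferons also induce, from 124 to 39.9, and it took the summed level of that list from 178 to 138. Neutrophil markers gave 3 rises and 1 fall (Lcn2) among 8 tested of 20, dendritic cell markers 3 rises among 7 of 18, monocyte markers 3 rises among 5 of 16, and bile duct markers 2 rises and 1 fall among 11 of 22. In the order given, 14, 12, 12 and 16 members of these lists were below 1 in both genotypes. Erythroid (0 up, 1 down of 10), mesothelial (1 up of 3), mast cell (1 up of 2), nerve (2 up of 3) and pancreatic acinar markers (1 down of 2) were mostly too low to test. Tmsb4x, an actin-binding peptide gene that is abundant in blood and stromal cells, rose from 66.7 to 232. Further leading rises were Tmc5, a transmembrane channel-like gene (0.906 to 8.44), and Ctla2b (0.872 to 5.31).

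Matrix genes were higher as well, and their list shares members with that of stellate cells. Of 31 tested of 39 listed collagens and matrix genes 24 rose and 1 fell, with a median of 0.72: Col3a1 from 1.18 to 6.16, Col14a1 from 3.59 to 13.6, Sparc from 8.82 to 28.9 and Col1a2 from 0.701 to 3.20, and Col27a1 fell from 8.82 to 5.72. Of the 39, 14 were below 1 in both genotypes. Genes that low entered the comparison mainly when their IkkB KO value was higher, so their direction cannot be read as a result about matrix genes. Of 22 tested growth factors and receptors 8 rose, among them Hgf, the stellate cell mitogen for hepatocytes, from 0.845 to 4.35, and Bmp2, an endothelial signal for hepcidin, from 1.76 to 3.92. Mitosis genes gave 10 rises and 0 falls among 21 tested of 30, all at low levels: Mki67 from 0.133 to 0.585, Top2a from 0.247 to 0.736 and Ccnb2 from 0.536 to 1.505, with a summed level of 8.72 in WT and 20.01 in IkkB KO. Of the 30, 23 were below 1 in both genotypes. Among all 1131 tested genes below 0.5 in WT, 400 rose and 4 fell, and among the 949 at 0.5 to 1, 175 and 7. Such genes entered the comparison mainly when their IkkB KO value was higher, so the 0 falls cannot be read as a result about mitosis genes. DNA replication genes gave 2 rises, Mcm6 (1.13 to 2.28) and Rrm2 (2.99 to 5.36), among 27 tested. Which cells carried these transcripts was not measured.

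Abundant housekeeping lists held almost no calls. Respiratory chain and ATP synthase genes had 0 of 41 tested called and a median of -0.13, and cytosolic ribosomal protein genes had 1 of 40 (Rps2, 159.96 to 111) and a median of -0.10. The median of genes at 50 or more in WT was likewise -0.13. Complement and coagulation factors, most of them secreted by hepatocytes, had 1 fall (C6, 106 to 62.8) and 3 rises (C1qa, C1qb and C1qc, which macrophages make) among 40 tested, with a median of -0.09.

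**Figure D5:**
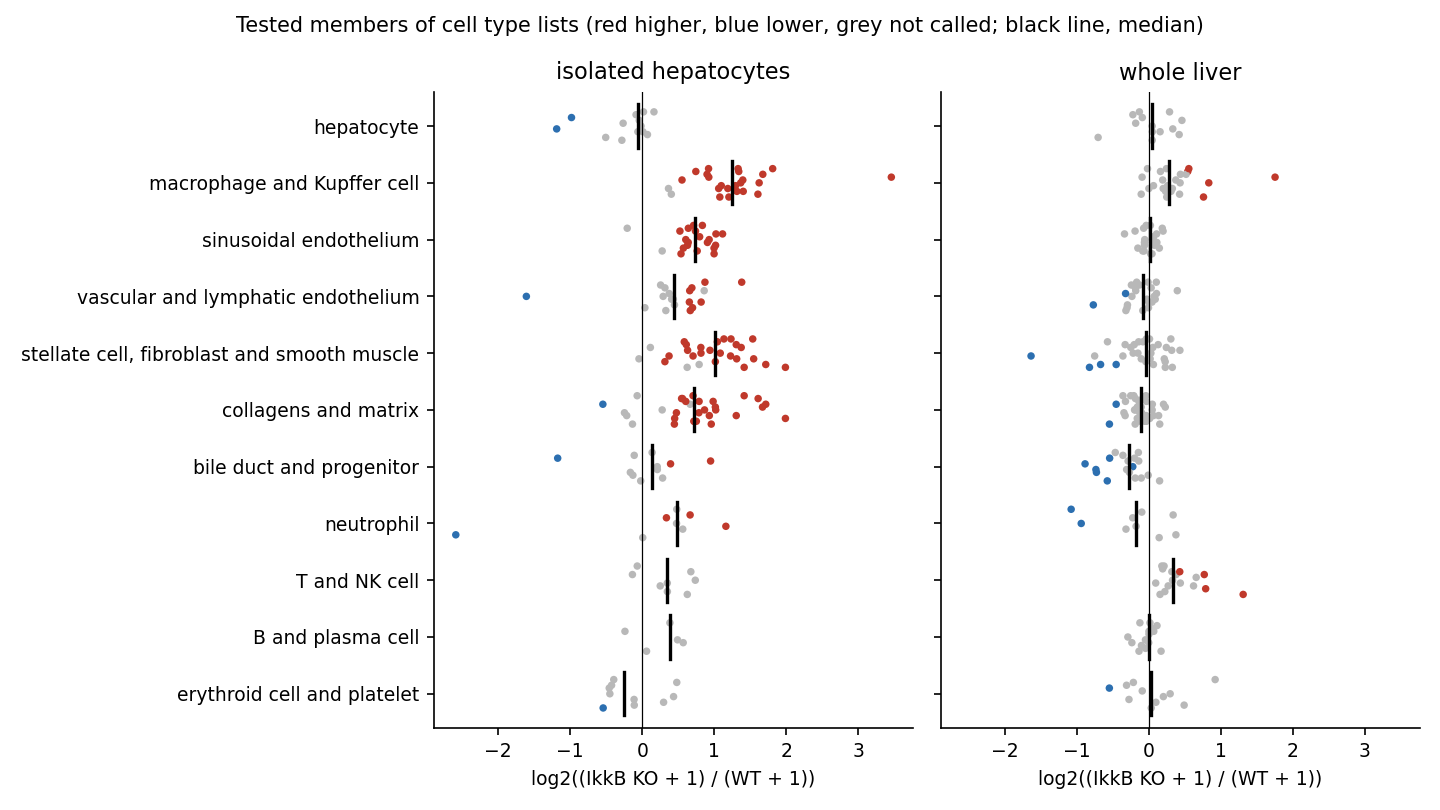
Tested members of 11 cell type and matrix lists by their log2 difference of value + 1 (IkkB KO minus WT), in isolated hepatocytes (left) and in whole liver (right). Red members were higher and blue lower at a q-value under 0.05, grey did not pass, and the black line is the median: in hepatocytes it is 1.25 for macrophage and 1.02 for stellate cell markers, and in whole liver 0.28 and -0.04.

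The whole livers of the same genotypes, a separate table normalized on its own, give the same comparison with 567 of 12484 genes called (4.54%), 2.37% higher and 2.17% lower. No test between the tables was made. Of 11883 genes tested in both, 182 were called in both, which is 16.4% of the hepatocyte calls and 34.3% of the liver calls, with 92 higher in both, 62 lower in both and 28 in opposite directions. Metallothioneins, Cxcl1 and Rgs16 moved alike: in whole liver Mt2 went from 1032 to 44.7, Mt1 from 1675 to 133, Cxcl1 from 19.4 to 4.16 and Rgs16 from 38.9 to 161. Saa1 fell from 534 to 122 in whole liver, and Ikbkb from 15.7 to 9.48. The acute phase list as a whole had 3 rises and 4 falls among 28 tested in liver (median -0.05). In hepatocytes it had 1 rise and 10 falls (median -0.54). The interferon-γ GTPases (median 0.80, 15 up and 1 down of 19 tested) and MHC class II genes (median 0.82, 8 up of 11 tested) were higher there too. In whole liver the stellate cell list had 0 rises and 4 falls (median -0.04), the sinusoidal list 0 and 0 (0.02) and the collagen list 0 and 2 (-0.12), while the macrophage list had 5 rises and 0 falls (0.28). Among the opposite genes, Col3a1 and Col4a1 were lower in whole liver (9.10 to 6.37 and 5.63 to 3.53) and higher in hepatocytes, as were Spp1, an osteopontin (52.5 to 31.1 in liver), and Ugt2b38 (17.5 to 5.73). Fgf21 (3.12 to 1.496 in liver), Nr4a1 (5.09 to 2.43), Igfbp3 (14.3 to 8.94) and Bhlhe41 were also lower in whole liver and higher in hepatocytes. Of the 28 opposite genes, 16 had this direction and 12 the other. Cyp2c37 (110.5 to 165), Cyp2c40 (2.31 to 5.57), Orm2 (14.8 to 22.8), Orm3 (1.94 to 3.87) and Hamp2 (256 to 428) were higher in whole liver and lower in hepatocytes. Pericentral genes had a liver median of 0.19 against -0.36 in hepatocytes. Drug-metabolising P450 genes had 12 rises and 3 falls among 39 tested in liver, with a median of 0.18 against -0.26 in hepatocytes. Female-biased genes had 12 rises and 0 falls among 14 tested in liver (median 0.80), where hepatocytes had 3 and 4. Male-biased genes had 0 rises and 12 falls among 19 tested in liver (median -1.06), where hepatocytes had 1 and 10.

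Hepatocytes that also lacked Shp2 were compared with IkkB KO hepatocytes in the same deposited table, with 1402 of 12321 genes called (11.4%), 5.75% higher and 5.62% lower in Double KO. This comparison shares the IkkB KO samples with the one above, so values are only set side by side. Genes named for an extreme IkkB KO value are favoured to differ in the opposite direction here. No reversal can therefore be read from them. Of 27 acute phase genes tested here, 6 were higher and 3 lower in Double KO than in IkkB KO. The higher ones included the 3 members of the list that fell furthest in IkkB KO, with Saa1 at 397 against 127, Saa2 266 against 58.6 and Lcn2 26.1 against 8.51, each with q = 0.00048 in the authors' deposited table. The metallothioneins did not pass, with Mt1 46.6 against 55.3 (q = 0.524) and Mt2 26.1 against 16.8 (q = 0.0797 in the authors' deposited table), nor did Cxcl1 (5.93 against 3.90, q = 0.232) or Cyp2a4 (15.7 against 12.2, q = 0.296). Ikbkb was 5.29 against 7.16 with q = 0.135. Lower in Double KO were Rgs16 (0.967 against 141), Marco (7.43 against 21.9), H2-Aa (21.9 against 87.9) and Dcn (41.6 against 84.8), each with q = 0.00048 in the authors' deposited table.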

How the data were processed

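PolyA RNA of 3 WT and 3 IkkB KO hepatocyte samples was sequenced from TruSeq v2 libraries. The submitters' processing notes name FastQC, Cuffdiff and the mm9 build. No source used here gives the aligner, the annotation or the strand setting, so values of overlapping genes are uncertain. For each pair of genotypes the authors deposited the expression value of each genotype (no unit in the header, FPKM by convention), a log2 ratio, a p-value and a q-value. The authors' test statistic is a score that Cuffdiff computed from the log2 ratio and its modelled error. The 5 hepatocyte pairs and 6 liver pairs hold no value per replicate, no counts and no library sizes, so depth and its precision are unknown.

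In Python 3.11.15 (pandas 2.3.3, numpy 2.4.6, matplotlib 3.10.9, scipy 1.17.1), differences were computed as log2(value + 1), IkkB KO minus WT. Genes were called at the authors' q-value under 0.05 among those that Cuffdiff tested and whose larger value was 0.1 or more, a rule that differed from the authors' own flag in 0 genes. The smallest p-value was 5e-05, shared by 307 called genes. The implied standard error is the deposited log2 ratio over the statistic, divided by the square root of 3; the squared errors of a closed cycle of 4 genotype pairs agreed within 1.6e-05 over 11680 genes, and the normal score of p over the statistic had a median of 1.733 against 1.732 for that root. It was not available for 31 genes listed at 0 in 1 genotype. The scripts were tested on simulated data.

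The 65 lists (1544 genes, 16 of the lists cell type markers) and the genes compared were chosen with earlier results of these data known. They are described by counts and medians, without set tests. Genes named are Ikbkb, the 15 largest rises and falls at a value of at least 1, up to 8 members per list (called members first), and any member of the IKK, receptor, acute phase, metallothionein and clock lists. Ttr, Tgtp2, Col27a1, Col4a1, Aass and Cxcl12 were chosen after their values were seen. Genes too abundant to estimate (24) are left out of sums, and 101 symbols with no entry of the same name in whole liver were not paired with it. Alternatives were another q-value threshold, a minimum difference, other filters, Benjamini-Hochberg adjustment within the comparison, centring and a pseudocount of 0.1.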

Additional observations from a re-analysis of the deposited data

How the results depend on the processing

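The counts of 922 genes higher and 220 lower became 581 and 120 at a q-value under 0.01, and 180 and 58 with a log2 difference of at least 1 required as well. Of the members of all lists together, 226 higher and 81 lower, 83 and 33 had a log2 difference of at least 1. The other filters, Benjamini-Hochberg adjustment within the comparison (683 and 149) and centring on the median kept the counts within 1.5 times, and no direction reversed under any of these settings. Higher genes were 80.7% of the calls, and 75.3 to 82.9% over the alternatives. Of 316 called genes of the lists and leading genes, 80 did not pass at a q-value under 0.01 and 55 did not pass with the adjustment within the comparison. With a pseudocount of 0.1 in place of 1, 10 of 63 list medians moved by more than the median implied standard error of their members, each to a higher value, such as collagens (0.72 to 1.46) and mitosis (0.38 to 1.06), and 1 of the others changed sign, the female-biased list (0.00099 to -0.08). The median for genes at 50 or more in WT was added after the data were seen. No paired analysis was possible because the deposited tables hold no value per replicate, and for the same reason no replicate could be left out. The cause of these changes was not tested, beyond the smaller number of genes that a stricter rule lets through.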

Other observations

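The genes here were chosen after their values were seen. Several genes outside the lists changed alike in isolated hepatocytes and in whole liver. The translation factor gene Eif4e3 rose from 2.79 to 8.69 in hepatocytes and from 2.10 to 6.66 in liver, and the lysophospholipid carrier Mfsd2a from 41.0 to 96.6 and from 29.5 to 96.7. The histone demethylase Kdm2b fell from 4.64 to 1.06 in hepatocytes and from 3.43 to 1.08 in liver, the Raf inhibitor Pebp1 from 74.9 to 35.2 and from 115.7 to 57.2, and the complement C4 homologue C4a from 13.3 to 5.999 and from 34.5 to 8.06.

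Of the tested genes, 31 were listed at 0 in 1 genotype, and 30 of these carry microRNA or small nucleolar RNA symbols. Only Gh, growth hormone, passed among the 31: in hepatocytes it was listed at 0 in WT and was 1.53 in IkkB KO, 0.176 in Double KO and 1.31 in the knockout of Shp2 alone. In whole liver Gh was 0.0135 in WT and 9.55 in IkkB KO with q = 0.45 in the authors' deposited table.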
